A study of Drosophila melanogaster with 4 samples.

Results

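The genes described here are the 10 that make up the Activin branch of TGF-beta signalling in Drosophila melanogaster, of 13990 gene symbols in the deposited tables. They were chosen by name, with earlier results of these data known. They are the ligand genes daw (dawdle), Actbeta (Activin-beta), myo (myoglianin, listed under that name) and mav (maverick), the follistatin gene Fs, the receptor genes babo, put and wit, and the Smad genes Smox and Med. All 10 were found once, with a usable estimate in all 4 libraries. RNA came from fat bodies dissected from yw larvae of the 3rd instar aged 110 h from egg laying, with 10 fat bodies pooled in each sample. In the Con group (2 samples) dMef2-Gal4, a driver active in muscle, was combined with UAS-white-RNAi, which targets an eye pigment transporter gene. In the ND-75-i group (2 samples) the same driver was combined with UAS-ND-75-RNAi, which targets a subunit of mitochondrial complex I. Both groups thus carry the driver and an RNAi construct, and no sample without RNAi was analysed here. The labels do not say that samples came from separate crosses, and p-values therefore rest on a sample-to-sample spread that could be technical.

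Activin-type ligands are secreted dimers. In flies they bind a complex of a type II receptor kinase, encoded by put or wit, and the type I receptor kinase encoded by babo. The activated Baboon receptor phosphorylates the Smad protein made from Smox, which joins the common Smad made from Med and acts on genes in the nucleus. Put, Wit and Med also serve the BMP branch, whereas Baboon and Smox are the Activin-specific pair. Follistatin binds ligands outside the cell. The series asks how a disturbed muscle alters the fat body from a distance, and a secreted ligand that reached the fat body from another tissue would not appear in fat body mRNA: the values below show only which pathway genes the dissected tissue itself transcribed.

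Values were FPKM, in which fragments are divided by transcript length and by the mapped fragments of the library, so levels of different genes can be compared per length. The bounds deposited with them correspond to about 9576000 to 11881000 fragments per library. Defining fat body genes were abundant: Fbp2, a fat body protein gene, stood at 29137 and 33073 FPKM in the Con libraries against 6380 and 16337 FPKM in the ND-75-i libraries, and Lsp1alpha, a larval serum protein gene, at 28004 and 25267 against 2893 and 4506 FPKM, so both were lower in both ND-75-i libraries, while Lsp1beta and Lsp2 had no usable estimate in at least 1 library. Salivary gland glue genes were also abundant in every library, with Sgs7 at 48873 and 23766 FPKM in Con against 16169 and 11379 FPKM in ND-75-i and Sgs3 at 13533 and 6069 against 5458 and 3331 FPKM, again lower in both ND-75-i libraries. The RNAi targets, read in a tissue other than the driver's, stood at 43.9 to 46.6 FPKM in Con and 79.0 to 94.8 FPKM in ND-75-i for ND-75 (listed as ND75), and at 2.48 and 5.37 against 2.11 and 6.96 FPKM for w. These values do not measure the knockdown in muscle. Markers of other tissues were present too. The 4 gut genes (Jon65Aiv and Jon25Bi the highest by mean) summed to 252 to 2010 FPKM. The 6 hemocyte genes (crq and He the highest by mean) summed to 45.7 to 109.9 FPKM. The groups overlapped in both sums. The 10 testis genes (ocn and Mst87F the highest by mean) summed to 219 and 152 FPKM in Con against 120 and 24.9 FPKM in ND-75-i. The 5 imaginal disc genes (ap and Dll the highest by mean) summed to 16.7 and 28.2 against 33.2 and 34.1 FPKM. The groups were apart in both sums. The part of these tissues in the values below was not tested. The median of all 10017 genes tested lay 0.25 higher in ND-75-i on the log2 scale, a shift of the whole table against which each change below is to be read. The share of all FPKM held by the 10 most abundant genes was 35.5% and 33.4% in the Con libraries against 18.8% and 20.1% in the ND-75-i libraries, and the part of this in the shift was not tested.

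Transcripts of every component were detected in both groups, over a range from 0.501 to 70.5 FPKM. In Con the order by mean FPKM was daw, myo, Smox, put, babo, Med, mav, wit, Fs and Actbeta. The difference between myo and Smox there, 3.29 FPKM, was smaller than the larger SD of that pair (3.60), and mav and wit overlapped; all other neighbours differed by more than the larger SD of the pair. In ND-75-i the order was daw, Smox, myo, put, babo, Med, mav, wit, Actbeta and Fs, and every neighbour differed by more than that SD. With 2 libraries per group such an SD is itself poorly known. The 1 exchange between neighbours that differed by more than such an SD in both groups was at the bottom, where Actbeta and Fs traded places. In Con replicate 1 the deposited bounds of Actbeta (0.457 to 0.946 FPKM) and Fs (0.765 to 1.39 FPKM) overlapped.

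**Figure D1:**
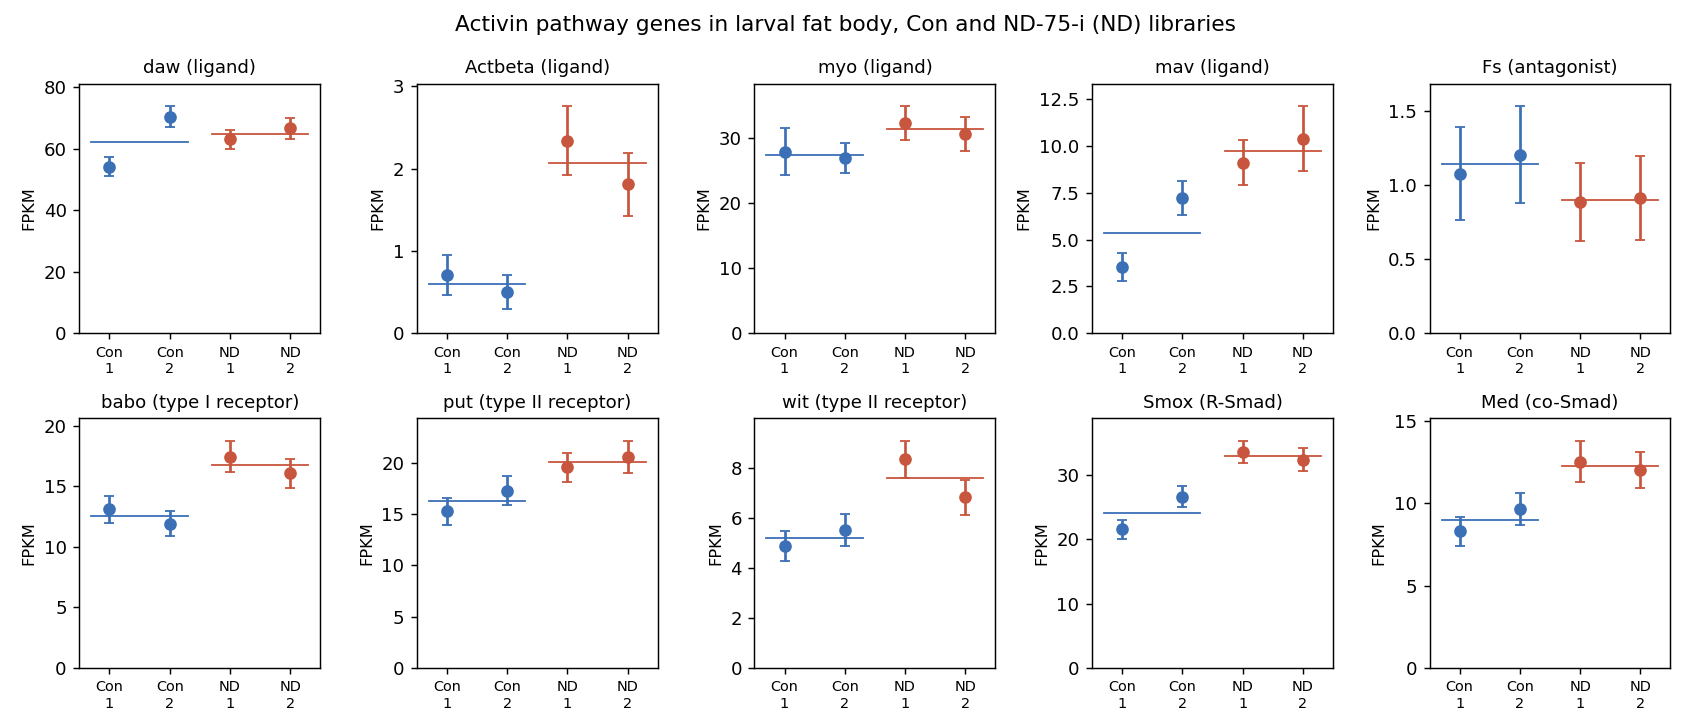
FPKM (linear axes from 0, a scale of its own for each gene) of the 10 genes in each library, with replicates 1 and 2 of Con in blue and of ND-75-i (ND) in red; bars are the bounds deposited with each value and horizontal lines are group means. Actbeta read 0.702 and 0.501 FPKM in the Con libraries against 2.34 and 1.81 FPKM in the ND-75-i libraries, whereas the values of daw overlapped between the groups.

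The ligand message was dominated by daw, which encodes a ligand known from fat body and muscle with a role in sugar and nutrient responses. It lies on chromosome 2L at 2805518 to 2812147 and read 54.2 and 70.5 FPKM in the Con libraries against 63.1 and 66.7 FPKM in the ND-75-i libraries. Both ND-75-i libraries lay between the Con libraries. The change, as log2(FPKM + 1) in ND-75-i minus Con, was 0.07 (SE 0.156, limma adjusted p = 0.755), below the median gene. It was -0.22 after median-ratio rescaling of the libraries and -0.12 without Con replicate 1, so it has no settled direction.

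The second ligand gene by level was myo, on chromosome 4 at 711890 to 716675, whose product is known from muscle and glia. It read 27.9 and 26.9 FPKM in the Con libraries against 32.2 and 30.5 FPKM in the ND-75-i libraries. The ND-75-i values were above both Con values, but by little. The log2 change was 0.19 (SE 0.0944, limma adjusted p = 0.206) and turned to -0.09 with median-ratio rescaling and to -0.07 with quantile normalization. The setting named voom weights fits the fragments implied by the deposited bounds in place of FPKM, and gave 0.54 (SE 0.427). Those fragments were 231 and 571 in Con against 606 and 548 in ND-75-i, and so did not follow FPKM in Con replicate 1. Muscle markers summed to 43.1 and 45.8 FPKM in the Con libraries against 70.6 and 51.1 FPKM in the ND-75-i libraries, with 0 of 11 at 0 in any library and Act57B at 6.62 and 12.2 against 21.4 and 16.9 FPKM. TpnC73F was at 11.3 and 6.01 against 9.45 and 6.41 FPKM. The part of these markers in the daw and myo values was not tested.

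Maverick, encoded by mav on chromosome 4 at 643842 to 646656, is a divergent member of the family described in glia. It read 3.53 and 7.22 FPKM in the Con libraries against 9.11 and 10.4 FPKM in the ND-75-i libraries. Both ND-75-i libraries lay above both Con libraries, yet Con replicate 2 was 2.04 times Con replicate 1, the widest replicate gap among the 10 genes. The log2 change was 0.81 (SE 0.339, limma adjusted p = 0.163), with 0.38 without Con replicate 1 and 1.24 without Con replicate 2. Voom weights, on implied fragments in place of FPKM, gave 0.16 (limma adjusted p = 0.830). Those fragments were 93.4 and 243 in Con against 233 and 144 in ND-75-i, and so did not follow FPKM in ND-75-i replicate 2.

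Actbeta, on chromosome 4 at 1097946 to 1105418, encodes Activin-beta, a ligand known from neurons and from enteroendocrine cells of the gut. It read 0.702 and 0.501 FPKM in the Con libraries against 2.34 and 1.81 FPKM in the ND-75-i libraries, the largest proportional difference among the 10 genes, with a ratio of group means of 3.45. The lowest ND-75-i library was 2.58 times the highest Con library, and the deposited bounds of the groups did not meet. The gene stayed rare in both groups: the bounds correspond to 33 and 24 fragments in Con against 124 and 87 in ND-75-i, and between 26.1% and 41.1% of usable entries in a library had a lower FPKM. The log2 change was 0.94 (SE 0.241, limma adjusted p = 0.0847) and so missed the threshold of 0.05. The size depends on how low values are treated, since the change was 1.64 with a pseudocount of 0.1 and 0.34 with a pseudocount of 5, and 1.76 with voom weights. Of genes tested, 88.7% had a smaller change, genes that fell included. Actbeta passed the low filter of 1 FPKM in 2 libraries only through ND-75-i, so this rank is a description.

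The summed markers of enteroendocrine cells and neurons, known for Activin-beta, and of glia were higher in both ND-75-i libraries. Of all genes tested, 53.7% also lay above in ND-75-i without overlap. Enteroendocrine markers summed to 3.84 and 3.99 FPKM in the Con libraries against 18.4 and 12.4 FPKM in the ND-75-i libraries, with 0 of 4 at 0 in any library. The largest of them, pros, which is also a neuronal gene, was at 2.76 and 2.04 against 11.6 and 8.03 FPKM, and npf at 0.820 and 1.41 against 3.82 and 3.20 FPKM. Neuronal markers summed to 64.1 and 70.8 against 94.0 and 80.1 FPKM, with 0 of 7 at 0. Most of that sum was Syt1, which was lower in both ND-75-i libraries (54.4 and 62.8 against 52.8 and 50.4 FPKM), while elav was at 4.04 and 3.34 against 13.7 and 10.7 FPKM. Glial markers summed to 32.6 and 34.7 against 70.3 and 52.6 FPKM, with 0 of 4 at 0, nrv2 at 23.4 and 26.3 against 38.1 and 29.2 FPKM and moody at 5.83 and 5.31 against 15.8 and 12.7 FPKM. The part of these markers in the values of Actbeta and mav was not tested, and in bulk tissue more cells of a type and more RNA per cell cannot be told apart.

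As described by the root mean square difference of centred log2(FPKM + 1) values over the 4 libraries, the genes whose pattern was most like that of Actbeta were CG11755 (0.0131), CG11191 (0.0158) and CG6114 (0.0160). CG11755 read 2.32 and 1.92 FPKM in the Con libraries against 5.43 and 4.54 FPKM in the ND-75-i libraries. With 4 libraries in 2 groups many genes share such a pattern.

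Of the 4 ligand genes, 3 lie on chromosome 4, the small dot chromosome. The 71 genes tested there had a median log2 change of 0.47, against 0.24 for all other genes, and 90.1% of them were above 0 against 67.1% elsewhere. After median-ratio rescaling the medians were 0.21 and -0.01. Actbeta and mav lay above the chromosome's median and myo below it.

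As deposited, the gene of the secreted antagonist lay lower in ND-75-i without passing the test. Fs, on chromosome 2R at 11111063 to 11129084, read 1.08 and 1.20 FPKM in the Con libraries against 0.886 and 0.912 FPKM in the ND-75-i libraries. Both ND-75-i libraries lay below both Con libraries, by less than the width of the deposited bounds. The log2 change was -0.17 (SE 0.224, limma adjusted p = 0.574), -0.37 with voom weights (SE 0.360) and -0.11 after quantile normalization (SE 0.349). The bounds correspond to 47.7 and 54.3 fragments in Con against 44.6 and 41.6 in ND-75-i. The entry CG8079, at 3.53 and 4.60 FPKM in Con against 6.65 and 7.59 FPKM in ND-75-i, overlaps Fs by 267 bases. With the strand setting of the counting unknown, its part in the Fs values and in the ratios to Fs was not tested.

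Ratios within a library are the same as deposited and after median-ratio rescaling, which multiplies a whole library by 1 factor, but not after quantile normalization. The 4 ligand genes together summed to 86.3 and 105 FPKM in the Con libraries against 107 and 109 FPKM in the ND-75-i libraries, which separated the groups narrowly. The exact two-sided permutation test over samples gave p = 0.333, the smallest it can give with 2 against 2, and after median-ratio rescaling the sums overlapped. Set against Fs, the sum was 80.2 and 87.3 times the Fs level in Con against 121 and 120 times in ND-75-i (exact permutation p = 0.333, again the smallest possible). After quantile normalization these ratios were 87.7 and 111.6 in Con against 213.7 and 68.8 in ND-75-i, which overlap (exact permutation p = 1). Within the sum, daw took 62.8% and 67.1% in Con against 59.1% and 60.9% in ND-75-i. Actbeta took 0.813% and 0.476% in Con against 2.19% and 1.65% in ND-75-i, and mav took 4.09% and 6.86% against 8.53% and 9.50%. The share of myo was 32.3% and 25.6% against 30.2% and 27.9%. A ratio chosen after its values were seen, Actbeta to Fs, was 0.652 and 0.416 in Con against 2.64 and 1.98 in ND-75-i, so that Fs exceeded Actbeta in each Con library and Actbeta exceeded Fs in each ND-75-i library.

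All 3 receptor genes lay higher in ND-75-i without passing the test, where 53.7% of all genes tested also lay above without overlap. The type I receptor gene babo, on chromosome 2R at 4839846 to 4850301, read 13.1 and 11.9 FPKM in the Con libraries against 17.4 and 16.1 FPKM in the ND-75-i libraries, groups that did not overlap. Its log2 change was 0.40 (SE 0.122, limma adjusted p = 0.111), and 0.12 after median-ratio rescaling, where the groups overlapped. Baboon exists as isoforms with different ligand preferences, which a single value per gene does not separate. The type II receptor gene put, on chromosome 3R at 10446052 to 10451421, read 15.3 and 17.3 FPKM in the Con libraries against 19.6 and 20.6 FPKM in the ND-75-i libraries. The groups were separate as deposited, and the change of 0.29 (SE 0.119, limma adjusted p = 0.161) was close to that of the median gene. After rescaling the change was 0.01 and the groups overlapped.

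The other type II receptor gene, wit, is best known from motor neurons and lies on chromosome 3L at 4064146 to 4071713. It read 4.89 and 5.52 FPKM in the Con libraries against 8.35 and 6.83 FPKM in the ND-75-i libraries. The groups did not overlap, also after rescaling, with a log2 change of 0.46 (SE 0.174, limma adjusted p = 0.143) as deposited and 0.21 rescaled. The entry CG32259 lies wholly inside the wit locus and was at 19.5 and 11.7 against 10.5 and 2.42 FPKM, and dib overlaps wit by 157 bases. The strand setting of the counting is not given in the sources used here, so reads of wit and these entries may not be fully separated.

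The proportions of the receptor messages were compared within each library. The ratio of babo to the sum of put and wit was 0.649 and 0.522 in Con against 0.625 and 0.586 in ND-75-i, with both ND-75-i values between the Con values. The ratio of put to wit was 3.12 and 3.13 in Con against 2.34 and 3.01 in ND-75-i, with both ND-75-i values below both Con values. The message of put was the more abundant of the type II receptors in every library.

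Both Smad genes lay higher in ND-75-i without passing the test, where 53.7% of all genes tested also lay above without overlap. Smox, on chromosome X at 8032424 to 8036301, was the most abundant signal transducer of the branch, at 21.6 and 26.7 FPKM in the Con libraries against 33.6 and 32.4 FPKM in the ND-75-i libraries. The groups did not overlap, as deposited or rescaled, and the log2 change was 0.44 (SE 0.139, limma adjusted p = 0.112) or 0.16 rescaled. Med, on chromosome 3R at 27436787 to 27440927, read 8.29 and 9.66 FPKM in the Con libraries against 12.5 and 12.0 FPKM in the ND-75-i libraries. These groups too were separate under both scalings, with a log2 change of 0.42 (SE 0.138, limma adjusted p = 0.122) as deposited and 0.15 rescaled. Voom weights gave 0.15 (SE 0.225, limma adjusted p = 0.640), on implied fragments whose ratio to FPKM differed between libraries. The ratio of Smox to Med was 2.60 and 2.76 in Con against 2.68 and 2.70 in ND-75-i, so the levels of the Smad messages differed between libraries by nearly the same factor. The abundant entry CycG, at 177 and 165 against 281 and 272 FPKM, overlaps Med by 1600 bases, and with the strand setting unknown its part in the Med values was not tested.

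Limma called 0 of the 10 genes higher and 0 lower at an adjusted p under 0.05, where 7.77% of all genes tested were called higher and 1.09% lower. Voom weights also called 0 in either direction, against 5.06% higher and 0.938% lower. With an unadjusted p under 0.05, 4 of 10 (Actbeta, babo, Smox and Med) lay higher and 0 lay lower, against 29.4% and 7.73% of all genes. The groups did not overlap for 9 of 10, with 8 above and 1 below in ND-75-i, and the same held for 53.7% (above) and 21.7% (below) of all genes. After median-ratio rescaling 5 lay above (Actbeta, mav, wit, Smox and Med), 2 below (daw and Fs) and 3 overlapped, against 34% above and 36.4% below among all genes. All 10 passed the low filter of 1 FPKM in 2 libraries, but Actbeta did so only through its ND-75-i libraries and Fs only through its Con libraries. Each had 1 group below 1 FPKM and was tested only because its other group reached that level. These counts are therefore a description. The median log2 change of the 10 was 0.41 beside 0.25 for all genes, and 0.14 beside -0.01 after rescaling. A p that misses the threshold does not show that a gene was the same in both groups.

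**Figure D2:**
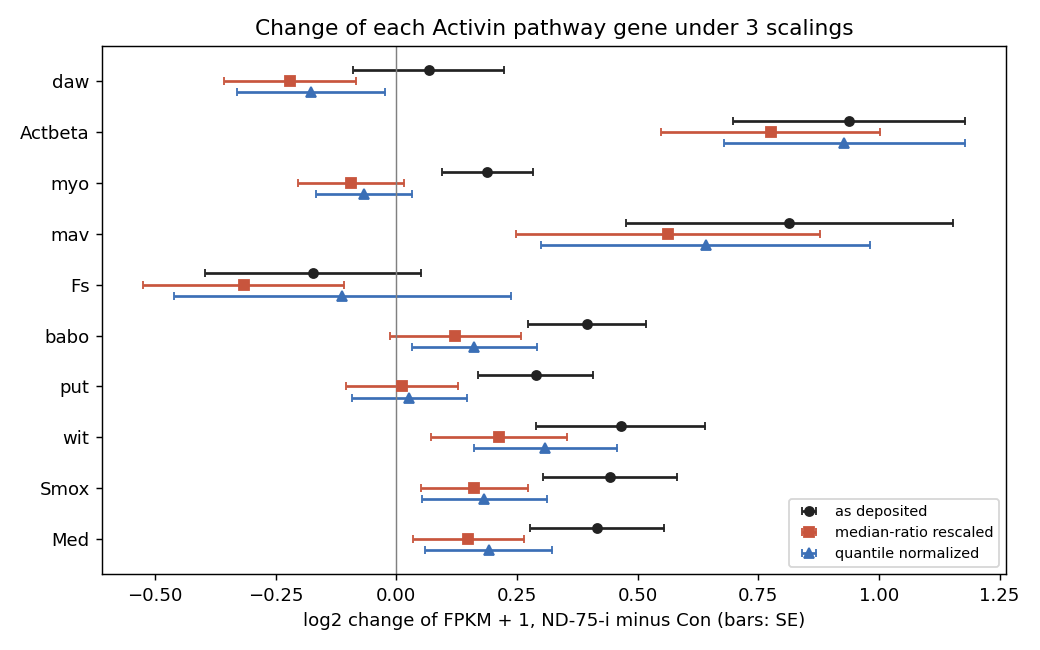
Log2 change of FPKM + 1 (ND-75-i minus Con, horizontal axis) with its SE for each of the 10 genes, for the values as deposited and for the median-ratio rescaled and quantile normalized values. The change of Actbeta was 0.94, 0.78 and 0.93, whereas daw went from 0.07 to -0.22 and -0.18.

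**Figure D3:**
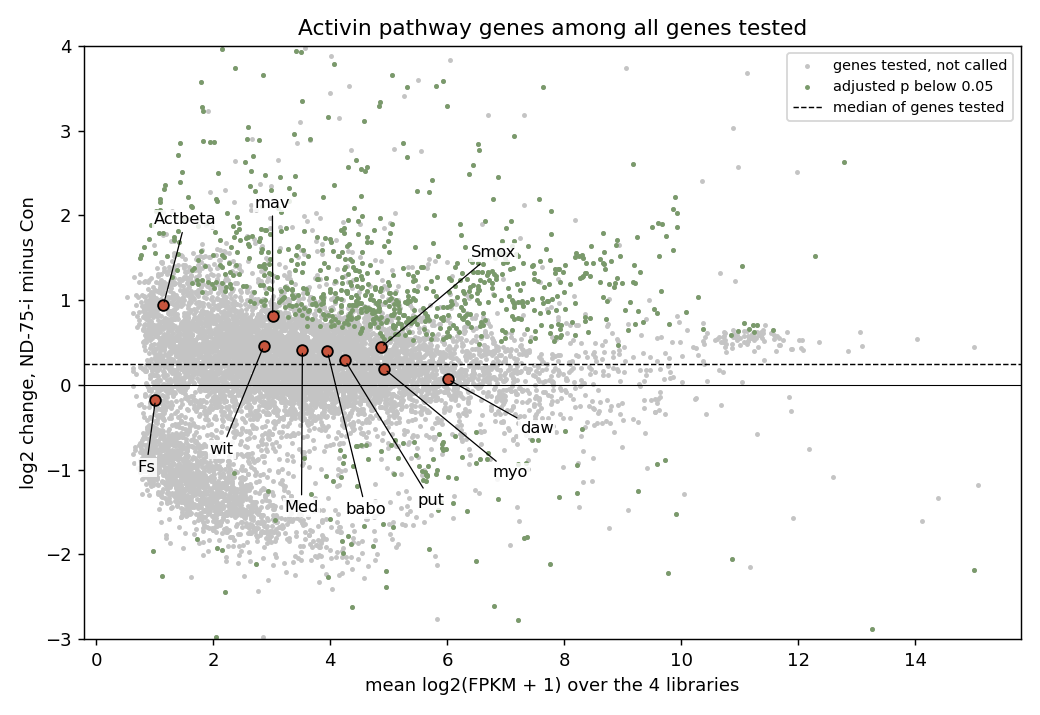
Log2 change (ND-75-i minus Con) against mean log2(FPKM + 1) over 4 libraries for 10017 genes tested, called genes in green and the 10 Activin branch genes in red; 54 genes fall outside the vertical axis, which runs from -3 to 4. None of the 10 is among the called genes, and babo, put, wit, Smox, Med and myo lie within 0.22 of the median line at 0.25.

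The rest of the TGF-beta pathway was read from 4 lists of 38 genes, of which 31 could be tested. Limma called 3 of them higher (tok, magu and AkhR) and 0 lower, a share near the 7.77% of all genes, and 11 of 31 lay higher with an unadjusted p below 0.05, beside 29.4% of all genes. Their median log2 change was 0.39, beside 0.25 for all genes. None of the 3 calls held after median-ratio rescaling. With 1 library left out, where limma called no gene of the whole table, the log2 changes were 0.74 to 0.86 for tok, 0.90 to 1.22 for magu and 0.81 to 0.88 for AkhR.

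Among 12 genes for extracellular regulators, 10 were tested, 2 rose and 0 fell, beside 7.77% and 1.09% of all genes. The gene tok encodes a Tolloid-related protease that is known to process the Dawdle precursor. It read 19.1 and 20.9 FPKM in the Con libraries against 37.1 and 34.0 FPKM in the ND-75-i libraries, groups well apart. It rose by 0.80 on the log2 scale (SE 0.109, limma adjusted p = 0.0353, and 0.0685 after median-ratio rescaling). The gene magu (pentagone), for a secreted protein that shapes the BMP gradient in the wing, rose from 14.0 and 17.7 to 36.8 and 31.2 FPKM (log2 change 1.06, SE 0.170, limma adjusted p = 0.0443, and 0.0623 rescaled). The furin protease gene Fur2, of a family that cleaves TGF-beta precursors, was at 13.4 and 14.3 against 25.9 and 22.1 FPKM and just missed the threshold (limma adjusted p = 0.0506). The related Fur1 was at 19.6 and 23.0 against 20.3 and 21.6 FPKM. The genes tsg and srw were at or near 0 FPKM.

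In the BMP branch 8 of 9 genes were tested and limma called 0, beside 7.77% higher among all genes, while 3 lay higher with an unadjusted p under 0.05, beside 29.4%. The smallest p was that of Dad, the inhibitory Smad and a standard target of BMP signalling, at 5.80 and 6.25 FPKM in the Con libraries against 11.4 and 10.7 FPKM in the ND-75-i libraries (log2 change 0.78, SE 0.135, limma adjusted p = 0.0510). The BMP ligand gene dpp was at 1.20 and 1.88 against 3.20 and 3.12 FPKM (limma adjusted p = 0.118), and sax, a BMP type I receptor gene, at 7.83 and 8.76 against 11.3 and 11.0 FPKM (limma adjusted p = 0.126). The most abundant was gbb, a BMP ligand gene, at 16.3 and 21.2 against 24.5 and 27.7 FPKM. Thus daw exceeded gbb and dpp in each library. The gene scw was at or near 0 FPKM.

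Of 9 genes for intracellular regulators limma called 0, beside 7.77% higher among all genes, while 3 lay higher with an unadjusted p under 0.05, beside 29.4%. The SUMO-conjugating enzyme gene lwr, whose product is known to modify Medea, was at 61.3 and 67.4 against 90.8 and 88.7 FPKM (limma adjusted p = 0.0578), a log2 change of 0.48 that was 0.19 after rescaling. The nuclear export receptor gene emb was at 25.4 and 26.7 against 32.6 and 32.4 FPKM, and Dd, for a phosphatase that restrains BMP signalling (listed as l(1)G0269), at 6.72 and 6.54 against 9.59 and 8.73 FPKM.

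The last list held 8 genes that other work ties to Activin signalling in various tissues, of which 4 passed the low filter. AkhR, the receptor of the adipokinetic hormone, rose (log2 change 0.84, limma adjusted p = 0.0220, and 0.0794 rescaled). The insulin receptor gene InR was at 1.68 and 1.76 against 3.39 and 2.74 FPKM (limma adjusted p = 0.132). The ecdysone receptor gene EcR was at 25.7 and 29.4 against 23.4 and 25.3 FPKM, and the autophagy gene Atg8a, the most abundant of the list, at 276 and 342 against 297 and 312 FPKM with overlapping groups. The amylase genes Amy-p and Amy-d, near-identical copies, stayed below 1 FPKM in every library, as did Mal-A1 (listed as LvpH) and tor.

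**Figure D4:**
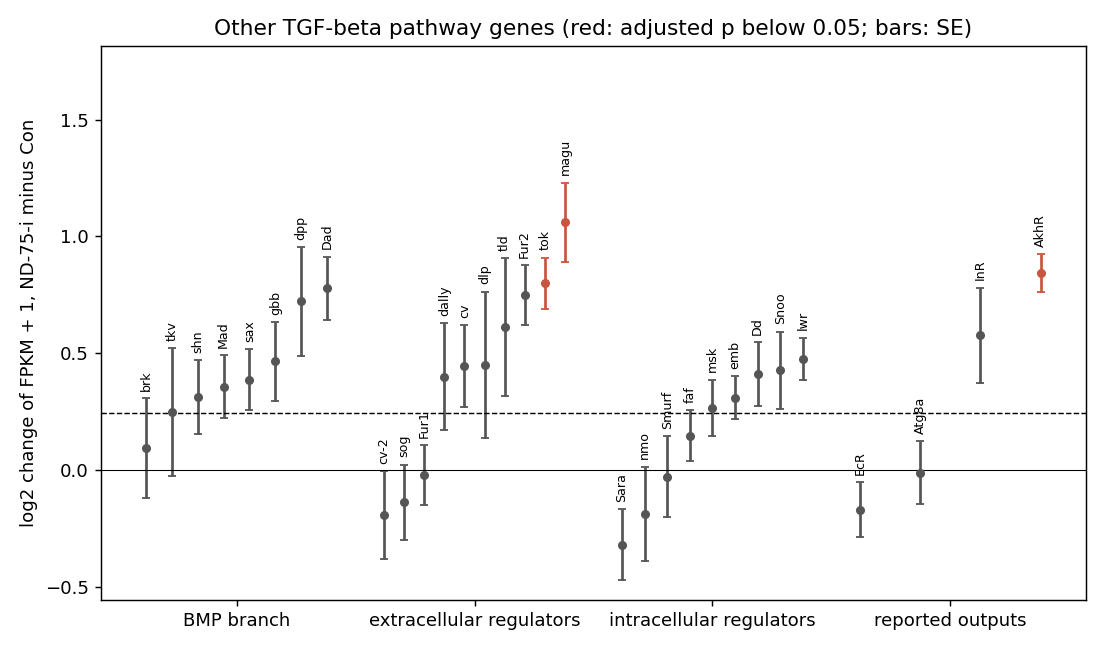
Log2 change of FPKM + 1 (ND-75-i minus Con, vertical axis) with its SE for the 31 tested genes of the 4 other TGF-beta lists; red marks an adjusted p below 0.05 and the dashed line the median of all genes, 0.25. The called genes are tok at 0.80, magu at 1.06 and AkhR at 0.84.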

How the data were processed

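The authors deposited 1 table of gene FPKM per library, with lower and upper bounds and a status, as the column names show (per the file headers). The submitters' processing notes name Bowtie 0.12.2. Not given in the sources used here were the genome build, the FPKM program, the annotation and the strand setting. Coordinates are as deposited, with 1 added to each start. Entries sharing a symbol (93 symbols) were summed, and 5 symbols turned into dates in Con replicate 1 were matched by position. Genes with status OK throughout and at least 1 FPKM in at least 2 libraries (10017) were fitted with limma 3.58.1 in R 4.3.3 on log2(FPKM + 1) with an intensity trend, no covariate and two-sided p-values adjusted by Benjamini-Hochberg over all genes, called under 0.05 (2 residual, 1.95 prior degrees of freedom). Low values understate folds on this scale. Fragments implied by the bounds, the squared ratio of FPKM to 0.5 of the upper half-width, served voom in place of FPKM and as a guide to depth. For genes such as mav, myo and Med their ratio to FPKM differed between libraries, so they are not counts for every gene. The deposited bounds cover the uncertainty of each estimate, not the spread between animals.

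The fit was tested on simulated data. It recovered the planted folds and the nominal rate of small unadjusted p-values, but most planted changes, larger folds included, missed the adjusted threshold. How many planted changes passed varied with the random seed. Changes were planted in fewer genes than limma called in the data, which alters the adjustment, so the simulated share does not carry over to the 10. In either case 0 calls among the 10 does not show that these genes were alike. A requirement on adjusted calls was dropped after earlier simulations failed it, and how spread was simulated was revised. Named genes were the 10, the RNAi targets, and per list every called gene, the 3 smallest p and the most abundant, plus the 2 most abundant markers per cell type. The genes CycG, CG32259, CG8079, dib, Lsp1beta, Lsp2, Fur1, scw, tsg, srw and genes below the low filter were added after their values were seen. The members and lists were chosen with earlier results of these data known. Of 114 list entries all were matched, some through synonyms. Alternatives were 2 rescalings, 2 pseudocounts, 2 low filters, a status filter, a replicate block, voom weights and leaving out each library. Figures used Python 3.11.15 and matplotlib 3.10.9.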

Additional observations from a re-analysis of the deposited data

How the results depend on the processing

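Each alternative that kept every library called 0 of the 10 Activin branch genes in either direction. The low filters, the status filter and the replicate block leave each change as it was, so no sign could turn there. Of 128 recomputed changes, these included, 122 kept their sign. The exceptions were daw, at -0.22 after median-ratio rescaling, -0.18 after quantile normalization, -0.056 with voom weights and -0.12 without Con replicate 1 (range -0.12 to 0.25 with 1 library left out), and myo, at -0.093 and -0.067 after the 2 rescalings. The summed ligand FPKM also turned, from a log2 ratio of 0.18 to -0.11 and -0.072 after these rescalings, as did daw and myo, which make up most of it; with 1 library left out it ranged from 0.04 to 0.32. The stricter low filter of a mean of 5 FPKM removed Actbeta and Fs. Voom weights, on implied fragments in place of FPKM, gave mav 0.16, myo 0.54, Med 0.15, babo 0.27 and Fs -0.37. Quantile normalization left the log2 ratio of the ligand sum to Fs at 0.50 (0.52 as deposited) with overlapping groups.

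Over all genes, 778 were higher and 109 lower. Median-ratio rescaling gave 347 higher and 139 lower, quantile normalization 591 and 373, no low filter 209 and 49, and voom weights 507 higher. Leaving out any 1 library, limma made 0 calls in both directions, with 1705 to 2839 higher and 343 to 1630 lower at an unadjusted p below 0.05, and where 1 library is left in a group it is assumed to vary like the other group. Of the other TGF-beta genes, 3 were called higher, which became 0 with median-ratio rescaling, 1 with quantile normalization, no low filter or voom weights, 5 with a pseudocount of 5, 6 with the stricter low filter and 0 to 0 with 1 library left out. Atg8a, at -0.012 over all libraries, ranged from -0.17 to 0.14 with 1 library left out, above 0 without Con replicate 2 or ND-75-i replicate 1. The cause of these differences was not tested, beyond the fewer samples or genes that the alternatives hold.

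Samples with the same replicate number deviated together (correlation 0.357). With 2 samples per group both pairs give the same value by construction, so they are not separate evidence. No label ties a number to a batch, and whether these samples shared one was not tested. The replicate block called 0 of the 10 genes and 3 other TGF-beta genes higher, and gave 794 higher and 200 lower genes overall. Actbeta, at 24 to 124 implied fragments, and Fs, at 41.6 to 54.3, are the genes whose depth limits the values most.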
